A study of Mus musculus with 6 samples.

Results

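The claudin family was examined in back skin of mouse embryos that carry or lack Get1, the grainyhead-like transcription factor now named Grhl3. Its members were taken by name, as every probe set whose platform annotation gives the symbol Cldn1, Cldn3, Cldn4, Cldn5, Cldn6, Cldn7, Cldn8, Cldn10, Cldn12 or Cldn23 alone. These were 10 genes of 18193 named on the array, read by 17 probe sets, the groups of short oligonucleotides that each measure a transcript. The mice were at e18.5, shortly before birth, and comprised 3 Get1 +/+ and 3 Get1 -/- animals, each with 1 array of the same back skin region. No strain, sex, litter or other allele, and no design of the Get1 allele, is given in the labels used here. Values are MAS5 signals in arbitrary units, group means are given ± SD (n = 3 per genotype), and every change is the log2 signal in Get1 -/- minus that in Get1 +/+ skin.

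Claudins are small proteins that cross the plasma membrane and seal the space between neighbouring cells by binding one another across it in tight junctions. In the epidermis these junctions sit in the granular layer, beneath the cornified layer, and loss of Cldn1 in mice is known to leave newborn skin unable to hold water. Skin samples also hold blood vessels, whose junctions are built largely on Cldn5, so that gene stands for a different cell type within the same RNA.

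On all arrays the 2% trimmed mean was 500, and the 3' to 5' signal ratio of the beta-actin control ran from 1.35 to 1.37 in Get1 +/+ and from 1.36 to 1.49 in Get1 -/- arrays. The Grhl3 probe set read 478, 934 and 670 in Get1 +/+ and 246, 413 and 380 in Get1 -/- replicates 1, 2 and 3 (log2 change -0.98 ± 0.29 SE, limma adjusted p = 0.737). Which part of the gene this probe set covers relative to the allele is not stated, so it does not settle the genotypes. All 17 keratinocyte markers chosen for this check, such as Krt5 and Krt10, and all 20 endothelial markers, such as Pecam1 and Kdr, lay above the filter on low signals, so RNA of both cell types was in the samples. Of the other cell types looked at, the 7 fibroblast markers had a median log2 change of -0.02, the 6 skeletal muscle markers of 0.25 and the 3 Schwann cell markers on the array of 0.18, with 0 passing the test and summed signals that overlapped between genotypes.

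None of the claudins passed the test for a genotype difference. Of 17 probe sets 9, from 7 genes, had a mean signal above the filter (at least 137) and entered the fit, in which 0 passed at an adjusted p under 0.05 (limma, Benjamini-Hochberg over 22519 probe sets), where 0.0266% of all probe sets did. Their adjusted p ran from 0.611 for Cldn4 to 0.985 for Cldn12. At an unadjusted p under 0.05, 3 of the 9 were lower in Get1 -/- skin (Cldn4, Cldn23 and 1 Cldn1 probe set), where 3.76% of all probe sets were, and 0 were higher, where 2.97% were. For the probe sets of Cldn4, Cldn23 and Cldn8 all Get1 -/- arrays lay below all Get1 +/+ arrays, a pattern that 6.51% of all probe sets showed. Of these, Cldn23 and Cldn8 passed the filter only through the Get1 +/+ group, since both had a geometric mean of 130 in Get1 -/- skin, so nothing is read from the counts over the 9. The direction was downward for 8 of the 9, against 49.8% of all probe sets, and their median log2 change was -0.45, against 0.00 over all probe sets. Taking all 17 without the filter, 13 were lower and 4 higher (median -0.45), and over all 45037 probe sets 51.9% were lower (median -0.02). These probe sets are not independent of one another, since several share a gene.

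**Figure D1:**
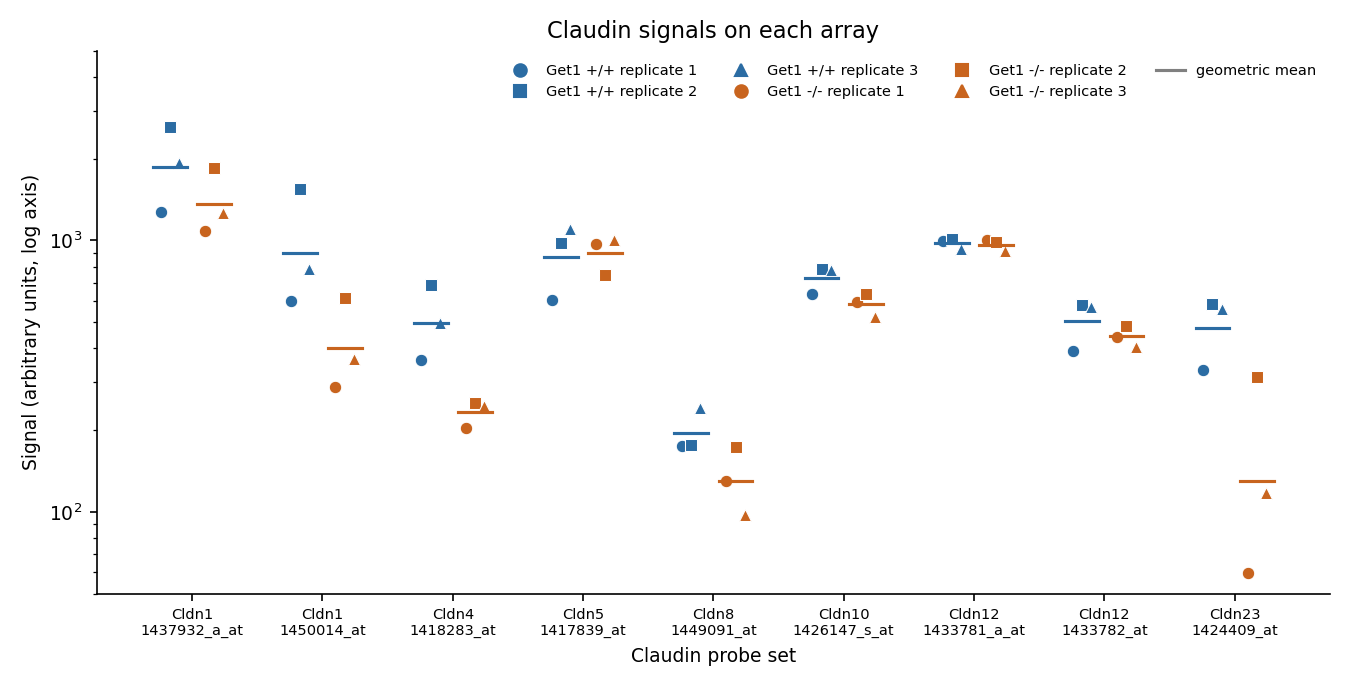
Signal of the 9 claudin probe sets above the filter on each of the 6 arrays, on a log axis in arbitrary units. Points are arrays, with Get1 +/+ in blue and Get1 -/- in orange and a symbol for each replicate number, and lines are geometric means of 3 arrays. Genotypes are apart for Cldn4 and Cldn23, nearly touch for Cldn8 (173 in Get1 -/- against 175 in Get1 +/+) and are mixed for the others. Cldn23 and Cldn8 passed the filter only through the Get1 +/+ group. Levels of different probe sets are not comparable with each other.

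To show the sequence from which these transcripts start, the 250 bases before the annotated start site were read from the RefSeq promoter table of GRCm38.p6 for Cldn4 and Cldn1, 2 of the genes with the lower readings, and for the endothelial Cldn5, which had no difference beyond the spread of the samples. The table held 12 such windows for 8 of the 10 genes. The Cldn4 window is chr5:134946935-134947184 (minus strand), the Cldn1 window chr16:26371840-26372089 (minus strand) and the Cldn5 window chr16:18776597-18776846 (plus strand). Capitals mark the GC box (GGGCGG, or CCGCCC on the other strand), a site bound by Sp family factors, and each window is given 5′ to 3′ on the strand of its gene.
Cldn4: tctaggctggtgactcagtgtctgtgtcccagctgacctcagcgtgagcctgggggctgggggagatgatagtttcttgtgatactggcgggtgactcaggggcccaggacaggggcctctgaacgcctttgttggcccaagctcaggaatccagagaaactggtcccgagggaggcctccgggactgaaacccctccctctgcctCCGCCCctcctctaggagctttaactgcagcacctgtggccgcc
Cldn1: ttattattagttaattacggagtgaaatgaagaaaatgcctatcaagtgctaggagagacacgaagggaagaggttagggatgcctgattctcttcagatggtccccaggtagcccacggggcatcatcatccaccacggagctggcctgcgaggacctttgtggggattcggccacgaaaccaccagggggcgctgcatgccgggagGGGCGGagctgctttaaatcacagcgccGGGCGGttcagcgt
Cldn5: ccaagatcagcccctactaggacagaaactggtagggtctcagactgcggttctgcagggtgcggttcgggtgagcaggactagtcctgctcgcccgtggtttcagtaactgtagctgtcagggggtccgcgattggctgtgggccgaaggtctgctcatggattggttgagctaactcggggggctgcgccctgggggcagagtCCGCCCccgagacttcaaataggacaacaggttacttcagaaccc

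The Cldn4 window had 1 GC box, its first base 44 bases before the start site, the Cldn5 window had 1 at 45 bases and the Cldn1 window had 2, at 42 and 14 bases. A GC box anywhere in the 250 bases was in 9 of the 12 claudin windows and in 32.7% of the 32851 windows of all genes. These windows are not independent, since those of Cldn12 overlap and 2 of them hold the same box. Their GC content was 62% for Cldn4, 55.6% for Cldn1 and 59.6% for Cldn5, against a median of 52.4% over all windows. The grainyhead consensus AACCGGTT, which reads the same on both strands, was in 0 of the 12 claudin windows and in 0.116% of all windows. A shorter form with the core and 1 flank (AACCGG, or CCGGTT on the other strand) was in 1 claudin window, that of a Cldn7 start, and in 5.62% of all windows, and every consensus site also holds it. The letters of these windows therefore do not distinguish Cldn4 and Cldn1 from Cldn5 by either motif, and nothing beyond the windows was searched.

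Cldn4, a barrier-forming claudin of the upper epidermis and many other epithelia, had the smallest p of the family. Its only probe set (1418283_at) read 363, 686 and 495 in the 3 Get1 +/+ samples and 204, 252 and 245 in the 3 Get1 -/- samples. The highest Get1 -/- value was thus below the lowest Get1 +/+ value, and the Get1 -/- samples were the more alike, with means of 514 ± 162 and 234 ± 26.2. The log2 change was -1.10 ± 0.26 (SE), a 2.14-fold lower level, with a 95% interval from -1.68 to -0.51. With unadjusted p = 0.00231 and adjusted p = 0.611 (limma) it did not pass. Leaving out any single array gave changes between -1.32 and -0.87. One GC box is all that its promoter window, printed above, held of the motifs searched.

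The gene next to Cldn4 in the RefSeq gene table (assembly GRCm38.p6) is Cldn3, which together with Cldn4 serves as a receptor for a bacterial enterotoxin. All 4 Cldn3 probe sets lay below the filter, with signals of at most 92, and their log2 changes were -1.72, -0.72, -0.79 and -2.36. The brightest of them (1451701_x_at) read 66.3, 76.9 and 92 in Get1 +/+ and 25.7, 47 and 10.9 in Get1 -/- skin, without overlap. Another (1426332_a_at) read 9.72, 30.2 and 30.5 against 3.15, 3.34 and 6.26, also without overlap, while genotypes overlapped for the remaining pair. Such signals are at the level of probe sets for genes of other organs, such as Prm1 and Umod, whose 30 probe sets had a median signal of 23.2, a 90th percentile of 95.1 and a highest signal of 419. A level of Cldn3 transcript cannot be read from them. With no filter, the smallest adjusted p among these 4 was 0.837 (limma).

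Cldn23, a claudin known from differentiated surface epithelia, had the largest difference among the probe sets above the filter. Its probe set (1424409_at) read 332, 584 and 561 in Get1 +/+ and 59.3, 314 and 117 in Get1 -/- samples. The groups did not overlap, but Get1 -/- replicate 2 (314) came close to Get1 +/+ replicate 1 (332), and the Get1 -/- values spread over more than those of any other claudin above the filter on the log2 scale. The change was -1.88 ± 0.54 (SE), with a 95% interval from -3.11 to -0.66 (unadjusted p = 0.0071, adjusted p = 0.737, limma). Without Get1 -/- replicate 1 the change was -1.32, and without Get1 -/- replicate 2 it was -2.52. The size of the difference is uncertain for a further reason: Get1 -/- replicate 1 lies under the 90th percentile of the other-organ probe sets (95.1) and replicate 3 under the filter (137).

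Cldn1, the claudin on which the water barrier of newborn mouse skin depends, was read by 4 probe sets, of which 2 lay above the filter. The probe set 1450014_at read 596, 1542 and 788 in Get1 +/+ and 289, 612 and 366 in Get1 -/- samples. The groups overlapped only where Get1 -/- replicate 2 (612) exceeded Get1 +/+ replicate 1 (596). Between samples of equal replicate number, which are not known to be pairs, the log2 differences were -1.04, -1.33 and -1.11. Its change was -1.16 ± 0.38 (SE), with a 95% interval from -2.03 to -0.30 (unadjusted p = 0.0143, adjusted p = 0.737, limma), and -0.77 without Get1 +/+ replicate 2, the sample with the highest Cldn1 signal. The brighter probe set, 1437932_a_at, read 1269, 2610 and 1935 against 1083, 1850 and 1261, which overlap widely, and its change was -0.45 ± 0.29 (adjusted p = 0.78). Without Get1 +/+ replicate 2 that change was -0.20, without Get1 -/- replicate 1 it was -0.28, and without Get1 +/+ replicate 1 it was -0.72. Both probe sets were highest in replicate 2 of each genotype, as Cldn4 and Cldn23 were. The dim pair of Cldn1 probe sets, with signals of at most 80.7, differed by 0.61 and 1.57 with overlapping groups. Their direction was opposite to that of the pair above the filter, but a level cannot be read at such signals.

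Differences were smaller for Cldn8 and Cldn10, claudins with roles in selective ion passage. Cldn8, known from the kidney collecting duct, read 175, 176 and 242 in Get1 +/+ and 130, 173 and 97.1 in Get1 -/- samples. The groups did not overlap, although the highest Get1 -/- and the lowest Get1 +/+ sample were nearly equal, and the change was -0.59 ± 0.30 (adjusted p = 0.743, limma). Without Get1 -/- replicate 3 that change was -0.38, and this was the dimmest claudin probe set above the filter, with means of 198 ± 38.7 and 133 ± 37.9. Cldn10, whose isoforms form ion-selective pores in kidney and sweat gland, read 634, 787 and 780 against 591, 637 and 521. These groups overlapped by a single pair of samples, and the change was -0.33 ± 0.18, with a 95% interval from -0.73 to 0.07 (adjusted p = 0.744).

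Cldn12, a widely expressed claudin that lacks the scaffold-binding tail end of most family members, had the smallest change. Its probe set 1433781_a_at read 997, 1016 and 934 in Get1 +/+ and 1001, 985 and 913 in Get1 -/- samples, with all 6 arrays intermixed. The change was -0.02 ± 0.15 and its 95% interval, from -0.36 to 0.31, does not include a change of the size estimated for Cldn4. The other Cldn12 probe set read 391, 578 and 567 against 442, 486 and 406, a change of -0.19 ± 0.21 (adjusted p = 0.883, limma).

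Cldn6, a claudin of embryonic epithelia, and Cldn7, a claudin of the basolateral membrane of many epithelia, were each read by 1 probe set below the filter. Cldn6 read 8.38, 39.7 and 43.7 in Get1 +/+ and 52.9, 23.4 and 9 in Get1 -/- samples, with low and high values in both genotypes. Cldn7 read 48.5, 69.3 and 86.4 against 92.3, 86.2 and 77.8, which overlap. The change of Cldn6, -0.13 with a 95% interval from -2.15 to 1.89, was too imprecise to show a difference of the size estimated for Cldn4. That of Cldn7, 0.36, had a 95% interval from -0.55 to 1.27, at signals where a level cannot be read.

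**Figure D2:**
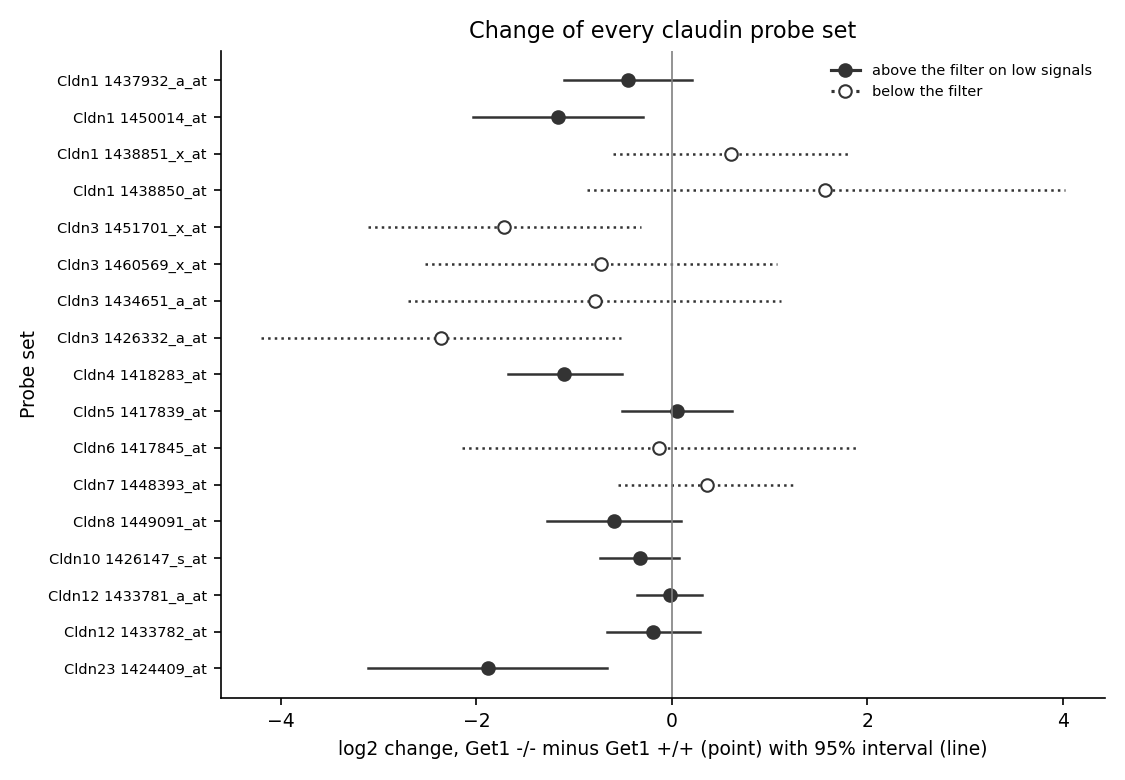
log2 change of each of the 17 claudin probe sets, Get1 -/- minus Get1 +/+, as a point with its 95% interval from limma. Filled points lie above the filter on low signals and open points with dotted lines below it. Intervals of Cldn4, Cldn23 and 1 Cldn1 probe set, and of 2 dim Cldn3 probe sets, do not reach 0, none of them passing after adjustment.

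Endothelial Cldn5 had no difference beyond the spread of the samples. It read 603, 980 and 1105 in Get1 +/+ and 973, 744 and 1003 in Get1 -/- samples, so the Get1 +/+ range enclosed the Get1 -/- range. The means were 896 ± 261 and 907 ± 142, and the change was 0.05 ± 0.25 (95% interval -0.51 to 0.62, adjusted p = 0.981, limma), or -0.21 without Get1 +/+ replicate 1. Among the endothelial markers 17 of 20 were higher and 3 lower, with a median of 0.15 and 0 passing (smallest adjusted p = 0.737, limma). Over all probe sets 49.8% were lower, with a median of 0.00. The summed signal of the endothelial markers ranged from 15656 to 18862 in Get1 +/+ and from 16993 to 20986 in Get1 -/- samples. Relative to the mean of these markers on each array, Cldn5 differed by -0.11 (two-sided exact permutation p = 0.9).

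The other claudins were then set against Cldn5 within each array, which removes any difference in scale between arrays. For Cldn4 the log2 difference from Cldn5 was -0.73, -0.52 and -1.16 in Get1 +/+ and -2.26, -1.56 and -2.03 in Get1 -/- samples. The groups did not overlap, and the mean difference between genotypes was -1.15 (two-sided exact permutation p = 0.1, n = 3 per genotype). For Cldn23 the differences were -0.86, -0.75 and -0.98 against -4.04, -1.24 and -3.10, also without overlap and with a mean difference of -1.93 (exact permutation p = 0.1). Cldn23 passed the filter only through the Get1 +/+ group, and its signals in Get1 -/- replicates 1 and 3 (59.3 and 117) lay under it. Nothing is therefore read from its separation. With 3 samples against 3 the smallest p this test can give is 0.1, so no comparison with Cldn5 could pass 0.05. The mean difference was -1.21 for Cldn1 probe set 1450014_at (exact permutation p = 0.2), where Get1 -/- replicate 2 (-0.28) lay within the Get1 +/+ range. It was -0.50 for the other Cldn1 probe set, -0.64 for Cldn8, -0.38 for Cldn10, and -0.08 and -0.24 for Cldn12, and in all of these the genotypes overlapped. With 1 array left out that for the brighter Cldn1 probe set ran from -0.86 (without Get1 -/- replicate 2) to -0.28 (without Get1 -/- replicate 1). On the same basis Cldn8 ran from -0.99 (without Get1 -/- replicate 2) to -0.36 (without Get1 -/- replicate 3), and Cldn10 from -0.58 (without Get1 -/- replicate 2) to -0.22 (without Get1 +/+ replicate 1 or Get1 -/- replicate 3). Adjusted over the 8 comparisons, p ran from 0.4 to 0.8.

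**Figure D3:**
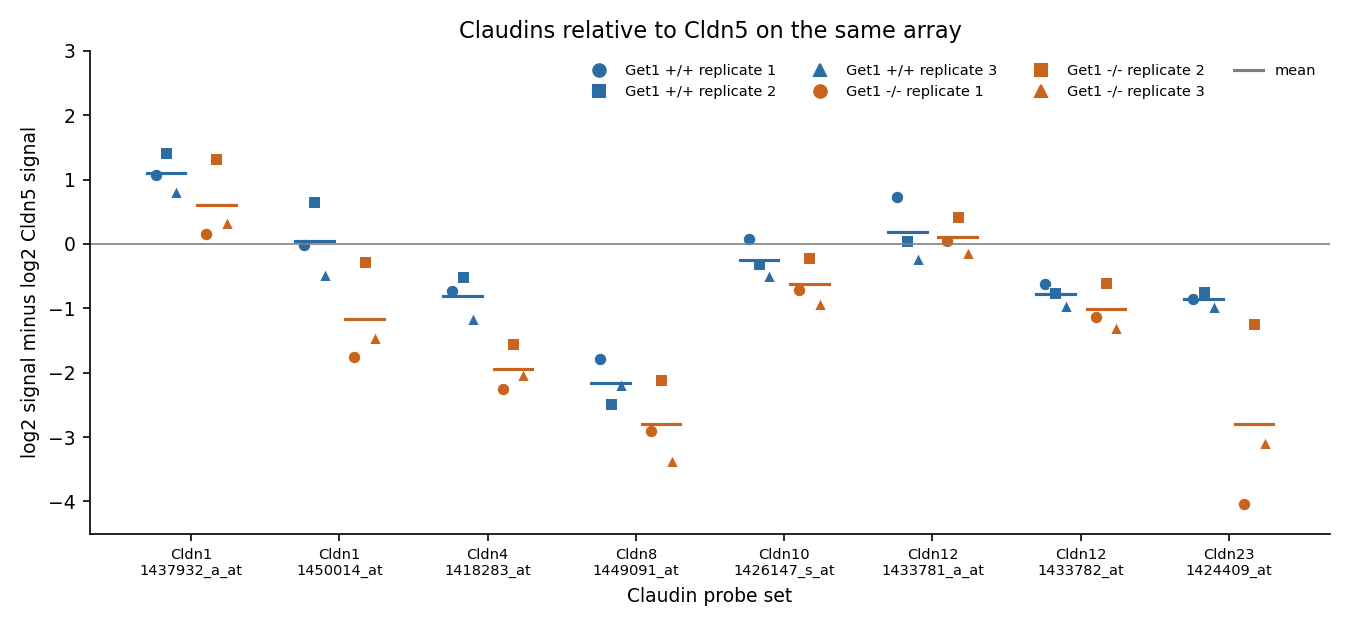
log2 signal of each claudin probe set minus the log2 signal of Cldn5 on the same array. Points are the 6 arrays, with Get1 +/+ in blue and Get1 -/- in orange, and lines are means of 3 arrays. Between genotypes Cldn4 differed by -1.15 and Cldn23 by -1.93 without overlap, and the 2 Cldn12 probe sets by -0.08 and -0.24 with overlap. Cldn23 and Cldn8 passed the filter only through the Get1 +/+ group. Heights of different claudins are not comparable.

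Keratinocyte markers also had lower readings in Get1 -/- skin. Of the 17 markers 16 were lower in Get1 -/- skin, with a median change of -0.19 and 0 passing (smallest adjusted p = 0.67, limma). Over all probe sets 49.8% were lower, with a median of 0.00. Sbsn (-0.49) and Krtdap (-0.45) differed most, both without overlap and by about as much as the brighter Cldn1 probe set (-0.45). For all other markers the genotypes overlapped, among them Krt1 (-0.12), Krt10 (-0.10), Krt5 (-0.12) and Krt14 (-0.12), and Itgb4 was higher (0.04). The summed signal of the 17 markers was 238901 to 259832 in Get1 +/+ and 210029 to 226551 in Get1 -/- samples, without overlap. In whole skin, fewer cells of a type and less RNA per cell cannot be told apart. The 17 markers stand for keratinocytes as a whole, with lower and upper layers pooled, and not for the granular layer. The share of upper-layer cells was therefore not tested, also where markers such as Sbsn and Krtdap differed more than the rest. Relative to their mean log2 value on the same array, Cldn4 differed by -0.89, without overlap (two-sided exact permutation p = 0.1). Cldn23 differed by -1.68, also without overlap (exact permutation p = 0.1), but its Get1 -/- replicates 1 and 3 lay under the filter. The Cldn1 probe set 1450014_at differed by -0.96 with overlap (exact permutation p = 0.2), and the brighter Cldn1 probe set by -0.24, also with overlap (exact permutation p = 0.6). On the same scale Cldn8 differed by -0.39, Cldn10 by -0.12, and Cldn12 by 0.18 and 0.02. The direction of Cldn12 thus turned with this reference, and the genotypes overlapped for all 3 of these genes. Adjusting for 9 such comparisons was not attempted, since none could pass 0.05.

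The arrays were also split at the median of the 3' beta-actin control signal, a cut that divides them equally whatever the values. Get1 +/+ replicates 1 and 2 and Get1 -/- replicate 1 lay above it (31441, 30902 and 31440). Get1 +/+ replicate 3 and Get1 -/- replicates 2 and 3 lay below it (23312, 22558 and 26889). Cldn4 differed by -1.29 among the former and by -0.99 among the latter, Cldn23 by -2.89 and -1.55, and the Cldn1 probe set 1450014_at by -1.73 and -0.74. Cldn5 differed by 0.34 and -0.36, so its direction was opposite in these sets. In each set 1 genotype is a single array, and the part of the control signal in these values was not tested.

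The proteins that work with claudins in the same junctions were taken as a list of other membrane proteins, scaffolds and polarity proteins, 31 of which were named on the array. Of their 84 probe sets 52, from 28 genes, lay above the filter, and 0 passed (smallest adjusted p = 0.67, limma). Of the 52, 36 were lower and 16 higher in Get1 -/- skin, with a median of -0.13. Over all probe sets 49.8% were lower, with a median of 0.00. At an unadjusted p under 0.05, 9 of the 52 were lower and 2 higher, where 3.76% and 2.97% of all probe sets were. In 8 all Get1 -/- arrays lay below all Get1 +/+ arrays, a pattern of 6.51% of all probe sets. In 2 they all lay above, as in 1042 of all 22519.

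Among the membrane proteins, occludin (Ocln), which spans the membrane beside claudins, had the largest difference. Its probe set 1448873_at read 321, 806 and 490 in Get1 +/+ and 184, 334 and 211 in Get1 -/- samples, overlapping by 1 sample of each genotype, with a change of -1.10 ± 0.36 (adjusted p = 0.737, limma). The other Ocln probe set differed by -0.67, with overlap. Like Cldn1, Ocln was highest in replicate 2 of Get1 +/+ and of Get1 -/- on this probe set. Lsr, a protein of the corners where 3 cells meet, read 589, 831 and 964 against 447, 482 and 522, without overlap (-0.69 ± 0.21, adjusted p = 0.737). Marveld2, its partner at those corners, differed by -0.24 and F11r, a junctional adhesion molecule, by -0.24, both with overlap.

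Among scaffold and polarity genes differences lay on both sides of 0. Cingulin (Cgn), which links junctions to the cytoskeleton, read 375, 606 and 455 in Get1 +/+ and 255, 347 and 267 in Get1 -/- samples, without overlap (-0.71 ± 0.24, adjusted p = 0.737, limma). Crb3, an apical polarity protein, differed by -0.84 ± 0.23 on 1 probe set without overlap, and by 0.00 and -0.11 on its other kept probe sets. Pard3, a polarity scaffold, differed by -0.46 ± 0.16 on its probe set with the smallest p and by between -0.58 and -0.18 on the rest, and Ybx3, a factor that binds the ZO-1 scaffold, by -0.45 ± 0.12 and -0.15. Tjp1, which encodes ZO-1 itself, read 3369, 2644 and 2235 against 2807, 3661 and 3068, with overlap and a change of 0.22. Higher readings at an unadjusted p under 0.05 came from single probe sets of Amot (0.53) and Magi3 (0.73), whose other kept probe sets differed by -0.06 and -0.29.

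**Figure D4:**
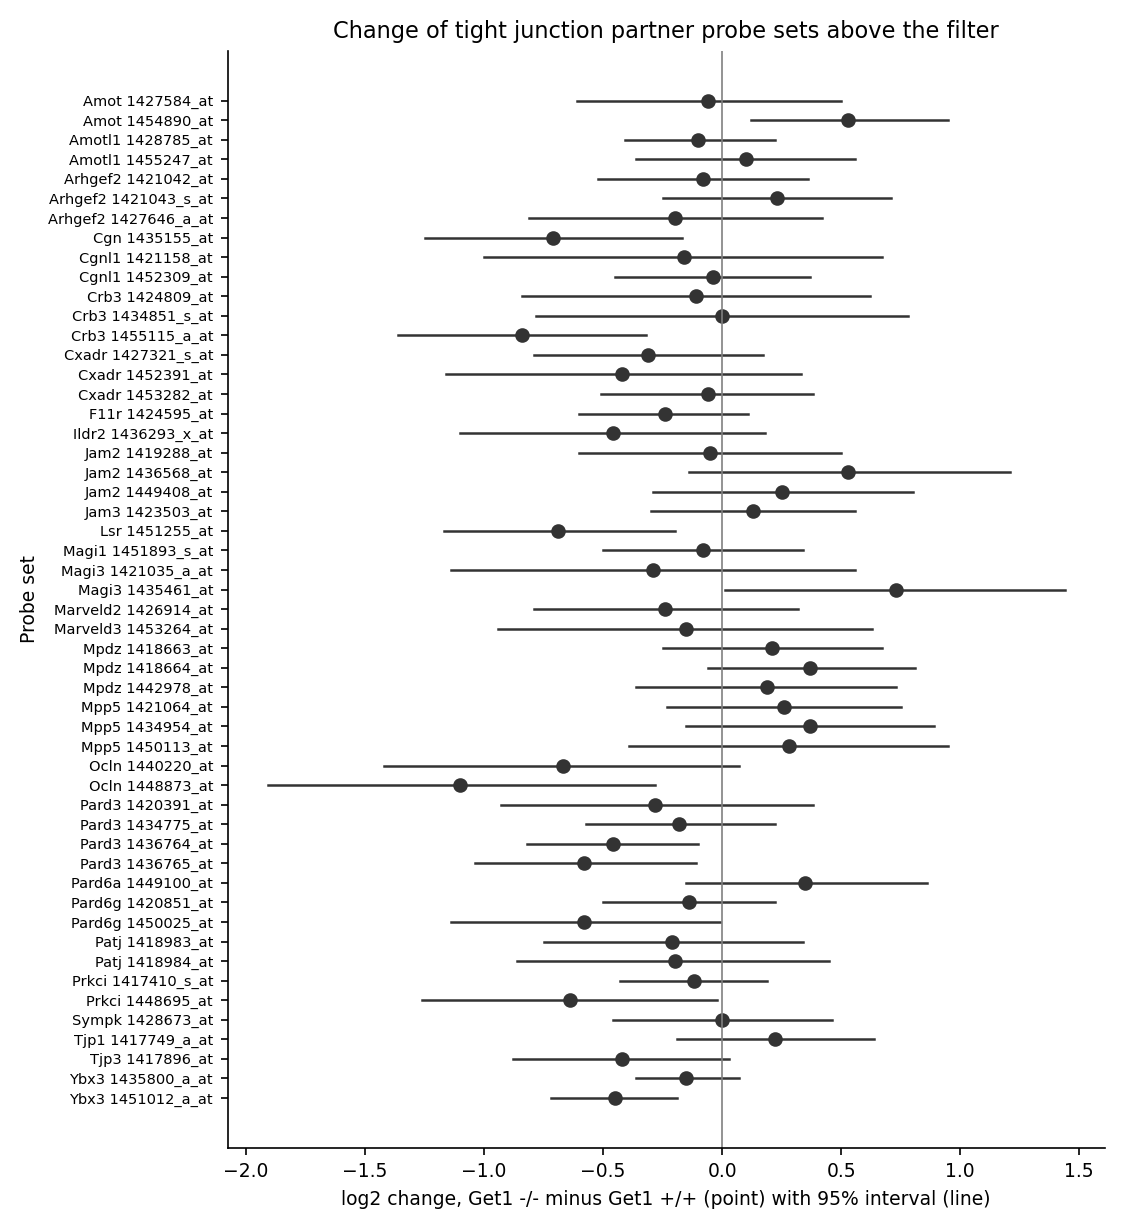
log2 change, Get1 -/- minus Get1 +/+, of the 52 tight junction partner probe sets above the filter, as points with 95% intervals from limma. Of these 36 lie left of 0 and 16 right of it, and the range of changes runs from Ocln at -1.10 to Magi3 at 0.73. Probe sets of the same gene are listed next to each other and can differ, as for Crb3.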

How the data were processed

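Back skin RNA of 6 mice was hybridised to 6 single-colour oligonucleotide arrays, 1 for each animal. Signal intensities as deposited by the authors are linear and, per the labels, came from MAS5, with no version given. They hold 45101 probe sets without detection calls, and equal trimmed means show that arrays had been scaled to one another. Precision is limited by the number of arrays.

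Intensities were turned into log2, 64 controls were dropped, and probe sets with a mean log2 value at or above the median were kept (22519 of 45037). The platform annotation named 1 gene for 34945 probe sets, several for 932 and none for 9160. For 99.4% of the first the Entrez identifier was in the RefSeq table of GRCm38.p6, and 0 symbols changed. The genotype fit used limma 3.58.1 under R 4.3.3, by lmFit and then a trended eBayes, with two-sided p adjusted by Benjamini-Hochberg over the kept probe sets and a threshold of 0.05. Claudins were set against Cldn5 with two-sided exact permutation tests over samples (scipy 1.17.1). Values of probe sets below the filter come from a fit on every probe set. On simulated data for this comparison (22519 probe sets, independent noise) the fit called 82% of changes of log2 size 2 and 98% of size 4, with 10 false calls. Smaller changes, such as those estimated for the claudins above the filter, were not simulated.

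Members and lists were chosen with earlier results of these data known. The text names all claudin probe sets, the partner probe sets with the smallest p of up to 6 genes, up to 2 other claudins by p, and marker lists by counts. Marveld2, F11r, Tjp1, Amot, Magi3, Sbsn, Krtdap, Krt1, Krt14, Itgb4 and Cldn15 fall outside that and were picked with their values in view. So was the comparison with marker means. Mice carry numbers 1 to 3 within a genotype in the labels, which mention no litter or day. After subtraction of genotype means, same-numbered mice had correlations of 0.133, 0.26 and 0.14 over 22519 probe sets. All exceed 0.1, so the numbers were treated as pairs in a fit with a replicate block, beside the unpaired fit. Correlations between mice of unlike number were not calculated, so these values do not show that the numbers mark pairs. Median signals were 152.2, 137 and 137.5 in Get1 +/+ and 151.3, 136 and 138.1 in Get1 -/- replicates 1, 2 and 3. Whether the numbers mark a shared batch was not tested. The labels do not say whether mice came from separate litters, and p-values measure the spread between these samples.

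Other settings tried were quantile normalization, centring on medians, a fit with no filter, a stricter filter (70th percentile), 37.6 added to each signal before log2 (25th percentile of signals), an untrended variance, array weights, the replicate block, the actin control class as a covariate, 1 probe set for each gene, and leaving out each array in turn.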

Additional observations from a re-analysis of the deposited data

How the results depend on the processing

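Under all 16 other settings listed in the methods 0 claudin probe sets passed the adjusted threshold. The replicate block changed no claudin call at the adjusted threshold, and the smallest adjusted p (limma) was 0.0714, for Cldn1 probe set 1450014_at. The unadjusted p of that probe set went from 0.0143 to 1.93e-04, and that of Cldn1 probe set 1437932_a_at from 0.155 to 0.019. For Cldn23 it went from 0.0071 to 6.36e-04 and for Cldn4 from 0.00231 to 0.00105. It rose for Cldn8, from 0.082 to 0.105, and for Cldn10, from 0.0963 to 0.104. Cldn4, Cldn23, Cldn8, Cldn10 and both kept Cldn1 probe sets stayed lower in all of the settings in which they were measured. These settings reuse the same arrays, so an unchanged direction is not independent support. Cldn23 and Cldn8 also passed the filter only through the Get1 +/+ group. The stricter filter left 6 claudin probe sets and removed Cldn4, Cldn23 and Cldn8. Over all probe sets the count past the threshold was 6, and it was 13 with median centring, 35 with the replicate block and from 4 to 26 with 1 array left out, the highest without Get1 +/+ replicate 1. The count of claudin probe sets lower at an unadjusted p under 0.05 was 3 of 9, where 3.76% of all probe sets were. With no filter it was 5 of 17, where 1512 of all 45037 were. It was 1 of 6 with the stricter filter and 2 of 7 with 1 probe set for each gene. Of the 9, it was 5 with array weights and 4 with the replicate block or no variance trend. With 1 array left out it ran from 3 to 5 of 9, the highest again without Get1 +/+ replicate 1. Shares over all probe sets were not counted under those other settings, so nothing about claudins is read from these counts. The cause of these shifts was not tested, apart from the filters, which change how many probe sets are tested. Changes near 0 turned sign: Cldn5 was -0.01 with the actin class as covariate, -0.11 relative to endothelial markers and from -0.21 to 0.23 with 1 array left out. Cldn12 probe set 1433781_a_at was 0.01 with the actin class and 0.18 relative to keratinocyte markers, its other probe set 0.02 there, and the former ran from -0.06 to 0.02 with 1 array left out. Its shift against Cldn5 ran from -0.29 to 0.20 with 1 array left out. The median change of the claudin probe sets ran from -0.67 (without Get1 +/+ replicate 1 or Get1 -/- replicate 2) to -0.27 (without Get1 +/+ replicate 2) with 1 array left out. Signals near those of silent genes limit Cldn3, Cldn6 and Cldn7, for which no level was measured.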

Other observations

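Claudins outside the family list were on the array as 14 genes with 18 probe sets, of which 1 lay above the filter. That was Cldn15, known from the intestine as a pore for sodium, which is named because it stood alone there. It read 193, 283 and 323 in Get1 +/+ and 343, 303 and 343 in Get1 -/- skin, with overlap and a log2 change of 0.34 ± 0.24 (limma adjusted p = 0.798). Of the 18, without the filter, 8 were lower and 10 higher in Get1 -/- skin, with a median of 0.14, and 0 passed (smallest adjusted p = 0.837, limma) or reached an unadjusted p under 0.05. The smallest p were those of Cldn34b2, which read 16.2, 27.2 and 66.1 against 13.9, 12.5 and 4.41 (log2 change -1.75), and of a Cldn9 probe set that read 3.05, 26 and 18.6 against 27.8, 37.2 and 39.7 (1.60). The other Cldn9 probe set differed by -0.69, and all 3 lie at the signals of genes of other organs, so no level of these transcripts can be read from them.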
